A study of Homo sapiens with 12 samples.

Results

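The interferon-stimulated genes described here are 37 listed genes that cells switch on after interferon, taken by gene symbol from the annotation of the array platform. Of the 37, 36 were measured among the 18417 named genes of the arrays. The only probe set for the remaining gene, GBP1, also matches GBP3 and GBP1P1 and so stood for no gene. RNA came from 4 established human lines of anaplastic large cell lymphoma, a T-lineage cancer, each sampled in log-phase growth. The lines are SUDHL-1, DEL, Karpas299 and SUPM2, and no interferon treatment is named in the labels. Each line was stained with a Hoechst dye and sorted into side population cells (SP), which keep little of the dye, and main population cells (MP). SUDHL-1 gave 3 SP and 3 MP arrays, and DEL, Karpas299 and SUPM2 gave 1 SP and 1 MP array each, 12 arrays in all. The labels do not say whether the SUDHL-1 triplicates came from separate cultures, so p-values there measure the spread between sorted samples, which may be technical. Each line stands for 1 patient's tumour and not for a class of tumours.

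Type I interferons bind the receptor made of IFNAR1 and IFNAR2, whose kinases JAK1 and TYK2 phosphorylate STAT proteins. The complex of STATs with IRF9 binds a DNA element called ISRE before the start of many of these genes, while the STAT dimer that follows interferon-gamma binds another element called GAS. The products act at many steps of infection: MX proteins trap viral particles, OAS proteins make the messenger that activates RNA decay, IFIT proteins bind foreign RNA, and ISG15 is a ubiquitin-like protein that is joined to other proteins. Many of the genes keep a basal level without added interferon, and that level is what was measured here.

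Promoter sequences were taken from RefSeq (GRCh38.p14), in windows that run from 250 bases before to 50 bases after a gene's start, and 30 of the 37 genes had a window. The ISRE was searched on both strands as GAAA, any 2 bases and GAAA again (TTTC, any 2 bases and TTTC on the other strand), and 22 of the 30 genes (73.3%) held a match, against 4.38% of the 27305 genes with a window and 3.57% of all 35116 windows. The GAS was searched as TTCNNNGAA, which reads the same on both strands, and was in 11 of the 30 (36.7%), against 9.38% of genes and 7.66% of windows. The stretches below run from 150 to 51 bases before the start, and capitals mark the matches. Except for IFIT1, they belong to genes whose levels stood apart in 1 line or on which the line comparison turns. ISG15 and IFI27 had their highest line mean in SUPM2, HERC5 and SAMD9 in SUDHL-1, IRF1 and IRF9 their lowest in SUDHL-1, and IFIT1 was dim on every array.
ISG15 (chr1:1013347-1013446, plus strand): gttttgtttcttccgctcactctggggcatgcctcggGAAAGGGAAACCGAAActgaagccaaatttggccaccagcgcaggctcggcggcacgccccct
IFI27 (chr14:94110586-94110685, plus strand): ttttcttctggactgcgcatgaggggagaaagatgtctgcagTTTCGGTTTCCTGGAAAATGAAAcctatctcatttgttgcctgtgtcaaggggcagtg
IFIT1 (chr10:89392473-89392572, plus strand): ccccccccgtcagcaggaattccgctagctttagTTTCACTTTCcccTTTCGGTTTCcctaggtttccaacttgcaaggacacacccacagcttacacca
HERC5 (chr4:88456969-88457068, plus strand): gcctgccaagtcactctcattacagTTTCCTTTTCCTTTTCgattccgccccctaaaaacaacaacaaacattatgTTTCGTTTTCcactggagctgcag
SAMD9 (chr7:93118030-93118129, minus strand): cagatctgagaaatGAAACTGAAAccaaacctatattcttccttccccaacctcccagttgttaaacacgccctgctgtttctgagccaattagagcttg
IRF1 (chr5:132490824-132490923, minus strand): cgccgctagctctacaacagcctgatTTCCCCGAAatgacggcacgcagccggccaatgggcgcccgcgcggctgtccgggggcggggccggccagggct
IRF9 (chr14:24161115-24161214, plus strand): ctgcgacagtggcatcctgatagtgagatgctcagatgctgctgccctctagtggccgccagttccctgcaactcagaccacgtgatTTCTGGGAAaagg
For MX1, which has 3 windows, the match of the first window lies 12 to 21 bases after the start, so 30 bases around it are shown.
MX1 (chr21:41420559-41420588, plus strand): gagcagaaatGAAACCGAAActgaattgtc
The capitals of IRF1 and IRF9 are GAS matches, and neither window held an ISRE match. In IFI27, 2 ISRE matches and 1 GAS match overlap, and in ISG15 and in HERC5 neighbouring ISRE matches overlap, so those capitals run on. IFIT1, dim on all 12 arrays, and ISG15, never in the lowest 25% of genes, both held ISRE matches. HERC6, XAF1, SAMD9L and CMPK2 held neither motif in their windows. A match describes letters and is not a measured binding site.

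Array signals were used on the deposited log2 scale, on which a difference of 1 is a doubling. Medians over probe sets were 4.834 to 5.0 on the SUDHL-1 arrays and 5.242 to 5.346 on the other arrays, and the sources do not say if SUDHL-1 was normalized jointly with the rest. Cell line and array set therefore cannot be told apart for SUDHL-1. The lymphoma and T-lineage markers included TNFRSF8 (CD30), whose line mean was lowest in SUDHL-1 at 7.02 and highest in Karpas299 at 9.78. PRF1 and GZMB, cytotoxic granule genes, and IL2RA had line means of at least 9.09 in every line, while CD3E was in the lowest 25% of genes on 9 of 12 arrays. Of 26 markers of B, myeloid, natural killer, plasmacytoid dendritic, stromal, epithelial and erythroid cells or platelets, 8 were in the lowest 25% on all 12 arrays and 10 on none. The 8 included MS4A1 (B cells), LYZ (myeloid cells), CLEC4C (plasmacytoid dendritic cells), KLRF1 (natural killer cells) and EPCAM (epithelium). Those never there included CSF1R (myeloid; line mean 5.10 in SUDHL-1, against 7.54 to 8.27 in the others), CD68, PAX5 and KRT18, while DCN (stromal) had a mean of 5.21 in DEL, against 2.38 to 2.99 in the others. Their part in the results was not tested.

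On the deposited scale, the basal level of the interferon-stimulated genes differed between lines more than that of most genes. The range between the highest and the lowest line mean had a median of 1.81 over the 36 genes, against 0.82 over all genes. All genes include dim ones, and the range was not taken without them or without SUDHL-1. The widest range was that of MX1, at 4.88, and the narrowest that of SAMD9L, at 0.34. The SUDHL-1 mean of SAMD9L rests partly on the MP 3 array, at 8.29, against 6.64 to 7.06 on the other SUDHL-1 arrays. The mean signal of the 36 genes was 5.69 to 5.96 on the SUDHL-1 arrays, 6.22 to 6.23 on the DEL arrays, 6.53 to 6.61 on the Karpas299 arrays and 6.70 to 6.76 on the SUPM2 arrays, so the lines did not overlap on the deposited scale. Less each array's median over all named genes, the mean was 0.36 to 0.62 on the SUDHL-1 arrays, 0.43 to 0.47 on DEL, 0.76 to 0.85 on Karpas299 and 0.90 to 0.98 on SUPM2, and SUDHL-1 and DEL then overlapped. SUDHL-1 had the highest line mean for 3 genes, DEL for 4, Karpas299 for 14 and SUPM2 for 15, where the shares over all genes were 19.8%, 18.0%, 23.5% and 38.8% in the same order. SUDHL-1 had the lowest for 24 of the 36, DEL for 6 and Karpas299 and SUPM2 for 3 each, and over all genes SUDHL-1 was lowest for 58.0%.

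**Figure D1:**
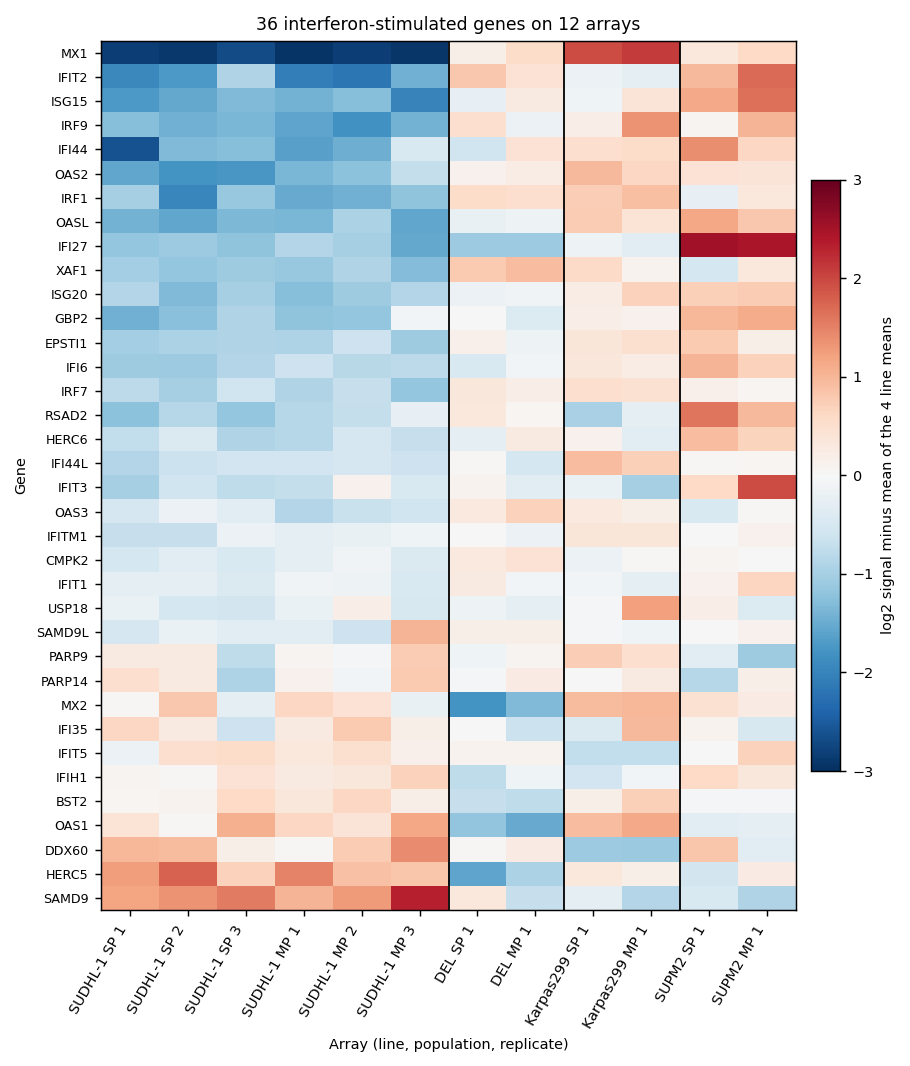
Log2 signal of the 36 measured interferon-stimulated genes (rows) on the 12 arrays (columns, grouped by cell line with SP before MP), shown as the difference from each gene's mean over the 4 line means, with colours ending at 3 in either direction. SUDHL-1 columns are below the mean for most genes, with HERC5 and SAMD9 above it, while MX1 stands out in Karpas299 and IFI27 in SUPM2.

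SUDHL-1 was set against the mean of DEL, Karpas299 and SUPM2 in 1 limma fit of all 12 arrays, with adjustment over all genes by Benjamini-Hochberg. The p-values of this fit, here and in the paragraphs on SUDHL-1 below, measure the spread between arrays within a line, not between lines. Of the 36 genes, 23 were lower in SUDHL-1, and 49.2% of all genes were called lower. Another 7 were higher, against 16.4% of all genes. The median difference was -0.80 over the 36 genes and -0.33 over all genes. Because the arrays of SUDHL-1 sit lower as a whole, the fit was repeated after quantile normalization of the 12 columns, after subtraction of array medians and after subtraction of the median of dim genes. The median over all genes was then 0.01, 0.13 and 0.04, and that over the 36 genes -0.49, -0.34 and -0.43. The share of lower genes among all called genes was 75% as deposited and 49%, 36.1% and 45.2% under these scalings. Of the 36, 18 were called lower and 6 higher under all 4 scalings. The share of all genes called the same way under all 4 is not given, so these counts cannot be read as particular to the 36 genes. Lower and higher after quantile normalization were 19 and 7 of the 36, against 4597 and 4792 of all 18417 genes. After array medians they were 18 and 9, against 3605 and 6381. After the dim genes' median they were 18 and 8, against 4496 and 5442. IFIT1, USP18 and SAMD9L changed sign among the scalings.

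By role, 11 of the 17 antiviral effectors were lower in SUDHL-1 and 4 higher. MX1, a GTPase that blocks viral replication, had the lowest difference of the 36, at -3.80 ± 0.10 (SE; limma adjusted p = 1.32e-09). MX1 signals were 3.43, 3.36 and 3.58 on the SP arrays and 3.33, 3.44 and 3.35 on the MP arrays of SUDHL-1. Those of the other lines were 6.44 (SP) and 6.82 (MP) in DEL, 8.22 and 8.37 in Karpas299, and 6.59 and 6.85 in SUPM2. MX1 was thus in the lowest 25% of genes on every SUDHL-1 array and on no other array. IFIT2, which binds RNA, differed by -2.28 ± 0.22 (limma adjusted p = 9.36e-06). Its signals were 3.28, 3.49 and 4.32 in SP and 3.14, 3.04 and 3.76 in MP of SUDHL-1, against 4.91 to 6.91 on the other 6 arrays. The SUDHL-1 arrays stayed below the rest. OAS2 had 4.30, 4.06 and 4.09 in SP and 4.47, 4.62 and 5.14 in MP of SUDHL-1, against 5.98 to 6.83 on the other arrays (-1.87 ± 0.17, limma adjusted p = 5.3e-06). OASL, a relative without synthetase activity, had 4.35, 4.21 and 4.43 in SP and 4.39, 4.82 and 4.21 in MP of SUDHL-1, against 5.55 to 6.94 (-1.83 ± 0.13, limma adjusted p = 1.24e-06). Neither gene overlapped between SUDHL-1 and the rest. ISG20, an exonuclease, differed by -1.41 ± 0.12 (limma adjusted p = 3.49e-06), also without overlap.

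The 4 effectors higher in SUDHL-1 were SAMD9, OAS1, BST2 and IFIT5. SAMD9, a restriction factor of poxviruses, had 9.61, 9.76 and 9.99 in SP and 9.45, 9.71 and 10.76 in MP of SUDHL-1. On the other arrays SAMD9 had 8.75 (SP) and 7.73 (MP) in DEL, 8.15 and 7.54 in Karpas299, and 7.96 and 7.51 in SUPM2. The SUDHL-1 arrays did not overlap the others, and the difference was 1.94 ± 0.24 (limma adjusted p = 5.37e-05). OAS1, an oligoadenylate synthetase, had 6.48, 6.11 and 7.15 in SP and 6.70, 6.45 and 7.23 in MP of SUDHL-1, against 4.56 to 7.22 on the other arrays. It differed by 0.82 ± 0.19 (limma adjusted p = 0.00349), but its line mean in SUDHL-1, 6.69, lay between 7.10 in Karpas299 and 5.77 in SUPM2, and without DEL the difference was 0.25 and not called. BST2 (tetherin, which holds budding virus at the membrane) had 9.55 to 10.12 in SUDHL-1, against 8.74 to 10.21 on the other arrays, and differed by 0.42 ± 0.14 (limma adjusted p = 0.0186). That call was lost without the DEL MP array (0.38), the Karpas299 SP array (0.34) or the whole line DEL (0.12), with the SUDHL-1 replicates averaged first and after renewed quantile normalization (0.21). IFIT5 had 4.59 to 5.32 in SUDHL-1, against 4.02 to 5.46, and differed by 0.40 ± 0.16 (limma adjusted p = 0.0398), and its call was lost without any 1 of SUDHL-1 SP 2 or 3, SUDHL-1 MP 1 or 2, either DEL array, either Karpas299 array or the SUPM2 SP array, with differences of 0.29 to 0.43. Without the whole line Karpas299 the IFIT5 difference was 0.08, and under the other 3 scalings it was 0.77 to 0.87 and called.

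Of the 4 genes of ISG15 conjugation, ISG15 and HERC6 were lower in SUDHL-1 and HERC5, the ligase that attaches ISG15 in human cells, was higher. ISG15 had 6.16, 6.34 and 6.56 in SP and 6.46, 6.60 and 5.88 in MP of SUDHL-1, against 7.63 (SP) and 8.14 (MP) in DEL, 7.75 and 8.27 in Karpas299, and 9.01 and 9.52 in SUPM2. The difference was -2.05 ± 0.16 (limma adjusted p = 1.76e-06). HERC5 went the other way, at 8.75, 9.27 and 8.18 in SP and 8.97, 8.38 and 8.32 in MP of SUDHL-1, against 5.91 to 7.82 on the other arrays. Its difference was 1.54 ± 0.22 (limma adjusted p = 0.000143), again with no overlap. USP18, the protease that removes ISG15, had a difference of -0.38 ± 0.21 that was not called (limma adjusted p = 0.133).

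Among the 8 sensors and regulators, the transcription factors IRF1, IRF7 and IRF9 were lower in SUDHL-1 and the RNA helicases IFIH1 (MDA5) and DDX60 higher. IRF9, the DNA-binding part of the interferon-activated complex, had 6.03, 5.86 and 5.93 in SP and 5.73, 5.49 and 5.89 in MP of SUDHL-1, against 7.14 to 8.65 on the other arrays. IRF1 had 5.49, 4.55 and 5.36 in SP and 4.99, 5.06 and 5.28 in MP of SUDHL-1, against 6.25 to 7.41. All 3 factors were without overlap, with differences of -1.84 ± 0.17 for IRF1, -1.14 ± 0.11 for IRF7 and -1.98 ± 0.23 for IRF9 (limma adjusted p = 5.72e-06, 7.9e-06 and 2.8e-05). DDX60 had 5.89, 5.85 and 5.07 in SP and 4.94, 5.67 and 6.32 in MP of SUDHL-1, against 3.78 to 5.74 on the other arrays. The groups overlapped, and DDX60 differed by 0.97 ± 0.26 (limma adjusted p = 0.00779), and by 0.53, not called, without Karpas299. IFIH1 had 6.81 to 7.46 in SUDHL-1, against 6.02 to 7.37, and differed by 0.41 ± 0.14 (limma adjusted p = 0.0209), a call lost without DEL SP (0.34), Karpas299 SP (0.37), SUPM2 MP (0.31), the line DEL (0.24) or the line Karpas299 (0.30). The calls of IFIH1 and IFIT5 were also lost with the SUDHL-1 replicates averaged first. PARP9, PARP14 and IFI35 were not called. Without Karpas299 SP, 4 of the 36 genes were called higher in place of 7.

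All 7 measured genes of the remaining group were lower in SUDHL-1. They included IFI44 (-1.94 ± 0.31), IFI27 (-1.53 ± 0.12), XAF1 (-1.47 ± 0.15), a binding partner of the apoptosis inhibitor XIAP, GBP2 (-1.34 ± 0.21), a guanylate-binding protein, and EPSTI1 (-1.22 ± 0.13), with limma adjusted p of 0.000284, 1.95e-06, 1.48e-05, 0.000261 and 1.52e-05. IFI44 had 2.50, 3.79 and 3.85 in SP and 3.49, 3.66 and 4.66 in MP of SUDHL-1, against 4.52 to 6.51 on the other arrays, and so overlapped with them. XAF1 had 6.10, 5.97 and 6.05 in SP and 5.98, 6.21 and 5.83 in MP of SUDHL-1, against 6.60 to 8.05, without overlap. Over the 36 genes, all 6 SUDHL-1 arrays lay below all 6 other arrays for 13 genes, where the share of all genes was 29.1%. They lay above for 2 genes, HERC5 and SAMD9, where the share of all genes was 7.51%.

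**Figure D2:**
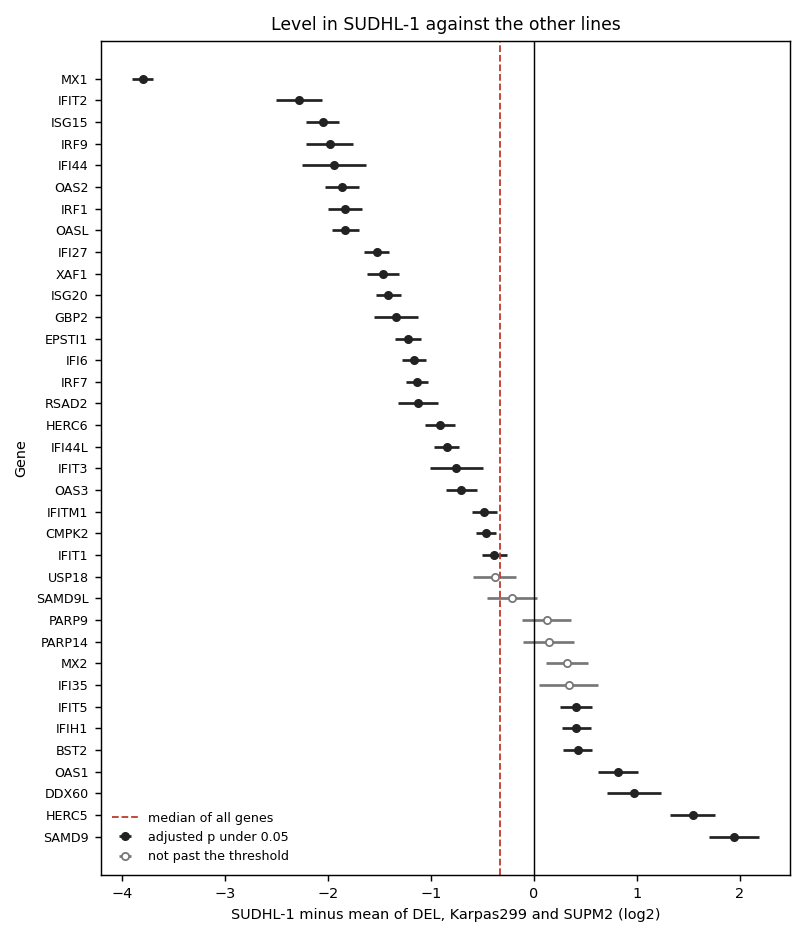
SUDHL-1 minus the mean of DEL, Karpas299 and SUPM2 (log2 signal, limma fit of 12 arrays) for each of the 36 genes, with bars for the standard error, filled points for adjusted p under 0.05 and the median of all genes as a line. MX1 lies lowest at -3.80 and SAMD9 highest at 1.94.

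DEL, Karpas299 and SUPM2 share their array level, and among these 3 lines a few interferon-stimulated genes differed, with the highest mean in Karpas299 for MX1, MX2 and OAS1 and in SUPM2 for IFI27 and ISG15. In a limma fit of the 6 arrays with line and population, the F test over the lines called 5 of the 36 genes, IFI27, MX2, OAS1, MX1 and ISG15 (adjusted p = 0.00347, 0.0114, 0.0128, 0.0146 and 0.0219). Over all genes 7.5% were called. At an unadjusted p under 0.05 there were 21 of the 36, against 24.1% of all genes. Each line had 1 SP and 1 MP array. The p-values here and in the pairwise comparisons below thus measure the spread between sorted populations of a line, not between cultures. Without DEL SP the F test called 2 of the 36, without Karpas299 SP or Karpas299 MP 1, and without SUPM2 SP 8, with the lone array of a line assumed to vary like the others.

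IFI27, a small mitochondrial protein used as a blood marker of interferon response, was high in SUPM2 alone. Its signals were 4.73 to 5.37 in SUDHL-1, 5.17 (SP) and 5.16 (MP) in DEL, 6.11 and 5.91 in Karpas299, and 8.78 and 8.70 in SUPM2. DEL and SUDHL-1 overlapped, and Karpas299 stood between them and SUPM2. DEL minus SUPM2 was -3.57 ± 0.18 and Karpas299 minus SUPM2 -2.73 ± 0.18 (SE; limma adjusted p = 0.00252 and 0.00462). The first call held without any 1 of the 6 arrays, and the second was lost without Karpas299 SP (-2.80) or Karpas299 MP (-2.65).

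In DEL minus Karpas299, 3 of the 36 genes were lower and 0 higher, while 1.06% of all genes were lower and 1.35% higher. MX2, which acts at the nuclear pore against retroviruses, had 4.51 (SP) and 4.96 (MP) in DEL, against 7.24 and 7.30 in Karpas299, a difference of -2.53 ± 0.22 (limma adjusted p = 0.0112). OAS1 had 4.90 and 4.56 in DEL, against 6.99 and 7.22 in Karpas299, a difference of -2.38 ± 0.22 (limma adjusted p = 0.0115). DEL was the lowest of all 4 lines for both genes, with no overlap with any other line. MX1 differed by -1.66 ± 0.18 (limma adjusted p = 0.0166). HERC5, at 5.91 and 6.55 in DEL and 7.82 and 7.66 in Karpas299, differed by -1.51 and was not called. The count of 3 became 1 without DEL SP (OAS1) or DEL MP (MX2), 0 without either Karpas299 array and 5 without either SUPM2 array.

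In DEL minus SUPM2, 5 genes were lower and 0 higher, with 1.47% of all genes lower and 3.25% higher. Beside IFI27, they were MX2 (-1.91 ± 0.22), ISG15 (-1.38 ± 0.17), GBP2 (-1.25 ± 0.21) and OASL (-1.17 ± 0.20), with limma adjusted p of 0.0177, 0.0219, 0.0408 and 0.0436. GBP2 had 8.52 (SP) and 8.10 (MP) in DEL, against 9.50 and 9.62 in SUPM2, without overlap. The count of 5 became 1 without DEL SP, DEL MP, Karpas299 SP or Karpas299 MP, 3 without SUPM2 SP and 2 without SUPM2 MP. ISG15, GBP2 and OASL lost their calls without any 1 of the 6 arrays, and MX2 without any 1 of the 4 DEL and Karpas299 arrays.

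In Karpas299 minus SUPM2, 2 genes were higher, MX1 (1.57 ± 0.18) and OAS1 (1.33 ± 0.22), and 4 lower, with 4.29% of all genes higher and 2.52% lower. The limma adjusted p was 0.0142 for MX1 and 0.0311 for OAS1. Beside IFI27, the lower genes were RSAD2 (viperin, which makes a chain-terminating nucleotide), IFIT2 and ISG15. RSAD2 had 3.15 (SP) and 3.83 (MP) in Karpas299, against 5.73 and 5.09 in SUPM2 (-1.92 ± 0.34, limma adjusted p = 0.038). IFIT2 differed by -1.58 ± 0.30 and ISG15 by -1.25 ± 0.17 (limma adjusted p = 0.0441 and 0.0229). Karpas299 thus had the higher MX1 and OAS1 and the lower IFIT2, RSAD2, ISG15 and IFI27 of the pair. The count of 6 became 3 without either DEL array and 0 without either Karpas299 array, and the count of 2 higher genes became 1 without SUPM2 MP. The ISG15 call was lost without any 1 of the 6 arrays and with no population term, those of RSAD2 and IFIT2 without 5 of the 6, OAS1 without 4, and MX1 and IFI27 without 2, the Karpas299 arrays.

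**Figure D3:**
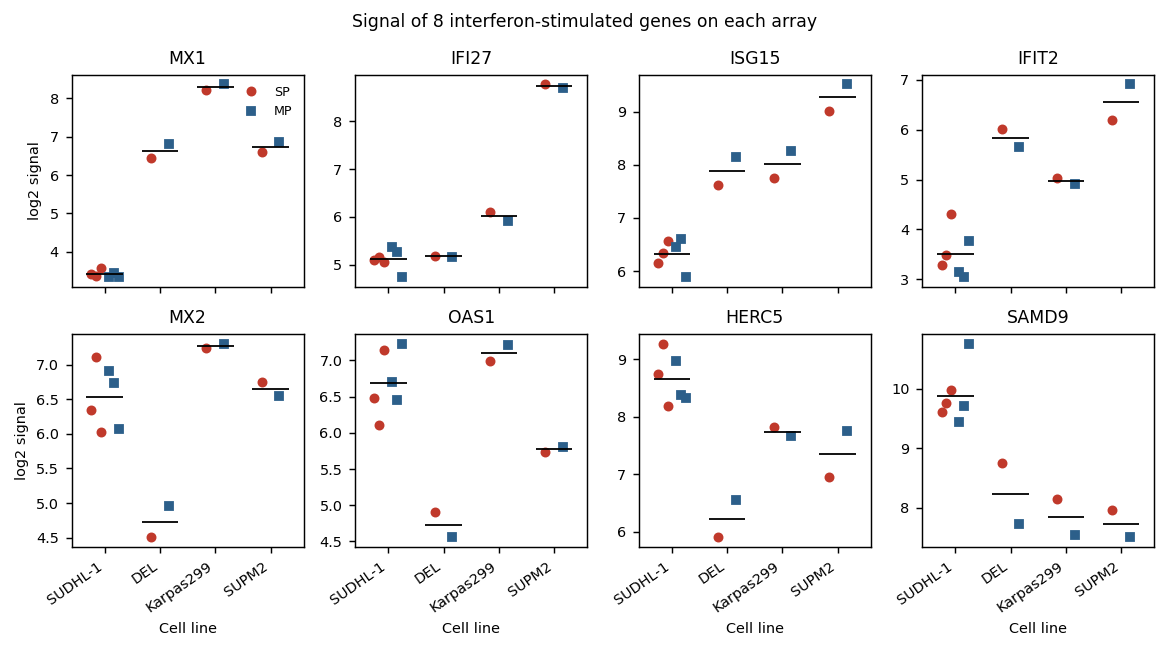
Log2 signal on each of the 12 arrays for members that the line comparisons turn on, by cell line, with SP arrays left of MP arrays and a bar at each line mean. MX1 is lowest in SUDHL-1 (mean 3.41) and highest in Karpas299 (8.29), IFI27 is highest in SUPM2 (8.74), MX2 and OAS1 are lowest in DEL (4.73 each), and SAMD9 and HERC5 are highest in SUDHL-1 (9.88 and 8.65).

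Several of the genes lie beside each other in the genome, with 0 protein-coding genes between them in RefSeq, and their order over the lines can be set side by side. MX1 and MX2 are such a pair. MX1 was lowest in SUDHL-1, with a mean of 3.41 ± 0.09 (SD, n = 6), while MX2 was lowest in DEL, at 4.73 ± 0.31 (SD, n = 2), and had 6.53 ± 0.45 in SUDHL-1. The OAS cluster split likewise. OAS1 was lowest in DEL, but OAS2 and OAS3 were lowest in SUDHL-1, with line means of 4.45 and 3.75, and OAS3 was highest in DEL, at 4.77. HERC5 was highest and HERC6 lowest in SUDHL-1, with an HERC6 mean of 3.44 in SUDHL-1, against 4.01 to 4.92 in the others. SAMD9 was higher in SUDHL-1 than in each other line. SAMD9L, its neighbour and relative, had a mean of 7.11 in SUDHL-1, with an SD of 0.60, and means of 7.19 to 7.45 in the others. That mean and SD rest partly on the SUDHL-1 MP 3 array, at 8.29. The other SUDHL-1 arrays had 6.64 to 7.06, below the 7.15 to 7.45 on the arrays of the other lines. IFIT2 and IFIT3 both had their highest mean in SUPM2, and IFI44 and IFI44L their lowest in SUDHL-1. The difference between neighbours was not tested.

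The rest of the interferon pathway was read from lists of related genes. All counts below are for SUDHL-1 against the mean of the other lines, where 49.2% of all genes were lower and 16.4% higher. These counts and differences are on the deposited scale, where the median difference over all genes was -0.33. For these lists they were not read under the other scalings, so small differences cannot be told from the lower array level of SUDHL-1. Of 17 interferon-gamma targets, 16 were lower and 0 higher. They included the peptide-loading genes TAPBP (-3.65) and TAP1 (-2.46), the class II regulator CIITA (-1.68) and GBP3 (-1.70). Of 32 further interferon-induced genes, 18 were lower and 5 higher, with LGALS3BP at -2.50, the ubiquitin ligase TRIM25 at -1.60, the DNA sensor IFI16 at -1.10 and PNPT1 at 1.70. Of 7 measured interferon ligand genes, 4 were lower and 0 higher, and IFNA2, IFNB1, IFNK, IFNE and IFNW1 were in the lowest 25% on all 12 arrays and IFNG on 11. Of 6 receptor genes, 4 were lower and 0 higher: IL10RB (-1.96), IFNGR2 (-1.56), IFNLR1 (-0.43) and IFNAR2 (-0.38). IFNGR2 had 4.89 to 6.84 in SUDHL-1, against 6.25 to 7.98, and IFNAR2 5.93 to 6.63, against 5.93 to 7.25. IFNAR1 (0.25 ± 0.18, with SUDHL-1 at 7.59 to 8.55 and the others at 7.14 to 8.39) and IFNGR1 (-0.29 ± 0.19, with SUDHL-1 at 8.21 to 9.20 and the others at 8.28 to 9.81) were not called (limma adjusted p = 0.249 and 0.197). Of 3 measured signal transducers, the kinases JAK1 (-1.17) and TYK2 (-1.26) were lower and 0 were higher.

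Of 7 negative regulators, 3 were lower and 2 higher, against the same shares of all genes. The phosphatase PTPN6 was at -1.54, the STAT inhibitors SOCS3 and SOCS1 at -0.95 and -0.35, and the phosphatase PTPN2 at 0.72. Of 14 RNA and DNA sensing genes, 5 were lower and 1 higher, among them the adaptor MAVS (-2.35), the kinases IKBKE (-2.28) and TBK1 (0.96) and the sensor ZBP1 (-0.56). Of 5 other IRF genes, IRF5 (-3.55) and IRF4 (-0.95) were lower and IRF8 (2.08) higher. Among DEL, Karpas299 and SUPM2, the F test called 7 of the 32 further interferon-induced genes, led by IFITM2 (limma adjusted p = 0.00301). IFITM2, which blocks viral fusion, had line means of 9.69 in DEL, 10.35 in Karpas299 and 6.17 in SUPM2. Its near copy among the 36 genes, IFITM1, had means of 10.40, 10.84 and 10.56 in those lines, and the copies may share probe signal. The F test called 1 gene each of the receptors (IFNGR2, adjusted p = 0.018), the other IRF genes (IRF8, 0.00826) and the interferon-gamma targets (WARS1, 0.036), and 0 of the ligands, transducers, negative regulators and sensing genes.

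SP and MP cells of SUDHL-1 were compared on 3 arrays each, and none of the 36 genes passed the threshold in limma. The same fit called 0% of all genes. At an unadjusted p under 0.05 there were 577 of all genes and 2 of the 36, OAS2 and OAS3. The median SP minus MP difference was -0.13 over the 36 genes, with 11 of them higher in SP, and -0.0002 over all genes. Without the SUDHL-1 MP 2 array that median was -0.04. SP and MP arrays correlated at 0.965 to 0.986 over all genes and replicates of 1 population at 0.973 to 0.984.

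OAS2, whose 3 SP signals of 4.06 to 4.30 all lay below the MP signals of 4.47 to 5.14, had a difference of -0.60 ± 0.20 (SE; limma adjusted p = 1). OAS3, which makes the same messenger, had 3.77, 4.09 and 3.94 in SP, against 3.39, 3.61 and 3.68 in MP, a difference of 0.37 ± 0.16 in the opposite direction (limma adjusted p = 1). IFI6 had 6.23, 6.21 and 6.40 in SP, against 6.67, 6.46 and 6.51 in MP (-0.26 ± 0.14, limma adjusted p = 1). SP lay wholly below MP for OAS2 and IFI6, where the share of all genes was 3.42%, and wholly above for OAS3, where it was 3.74%. RSAD2 (-0.48 ± 0.21), IFIT3 (-0.44 ± 0.24), IFIT2 (0.38 ± 0.31), IRF9 (0.24 ± 0.16) and IRF7 (0.12 ± 0.18) overlapped between the populations (limma adjusted p = 1 for each). Without SUDHL-1 SP 3 the difference of IFIT2 was 0.07.

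Over the 4 lines, with 1 SP minus MP difference per line, limma again called none of the 36 genes and 0% of all genes. At an unadjusted p under 0.05 there were 904 genes, among them PARP14 and ISG15. The median over the 36 was -0.10, with 10 of them higher in SP, against 0.02 over all genes. SP was higher for 11 of the 36 genes in SUDHL-1, where the share of all genes was 49.9%. In each of the other lines SP was higher for 17 to 19, against 49.2% to 57.8% of all genes. Differences beyond 1 in either direction numbered 0 in SUDHL-1, 2 in DEL and 3 in both Karpas299 and SUPM2. Over all 18417 genes such differences numbered 139 in SUDHL-1 and 450 (DEL), 589 (Karpas299) and 1213 (SUPM2) in the lines with single arrays. SP was below MP in all 4 lines for 2 genes, where the share of all genes was 5.65%, and above in all 4 for 1 gene, where it was 8.09%.

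PARP14, an ADP-ribosyltransferase, had SP minus MP differences of -0.33 (SUDHL-1), -0.30 (DEL), -0.26 (Karpas299) and -1.02 (SUPM2) (mean -0.48 ± 0.16, SE; limma adjusted p = 0.918). IFIT5 was the other gene below MP in each line, at -0.69 in SUPM2 and -0.02 to 0 elsewhere. IRF7, the factor that amplifies interferon production, was higher in SP in each line, at 0.12, 0.14, 0.05 and 0.08 (mean 0.10, SD 0.04, n = 4 lines). ISG15 differed by -0.50 in DEL, -0.52 in Karpas299 and -0.51 in SUPM2 but by 0.04 in SUDHL-1 (mean -0.37 ± 0.14, limma adjusted p = 0.918). SAMD9 differed by -0.19 in SUDHL-1 but by 1.02, 0.61 and 0.44 in DEL, Karpas299 and SUPM2 (mean 0.47 ± 0.20, limma adjusted p = 0.918). DDX60 (0.24), EPSTI1 (0.18), IFI44L (0.16), IFIH1 (-0.28) and MX1 (-0.17) were other differences of either sign, with limma adjusted p of 0.918 to 0.927. The SP minus MP difference of SUDHL-1 minus that of the other lines was tested as an interaction, which called 0 of the 36 genes and 0% of all genes. At an unadjusted p under 0.05, it had 661 of all genes, with OAS3 (0.63) and OAS2 (-0.70) among the 36, and ISG15 gave 0.56 ± 0.28 (limma adjusted p = 1).

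**Figure D4:**
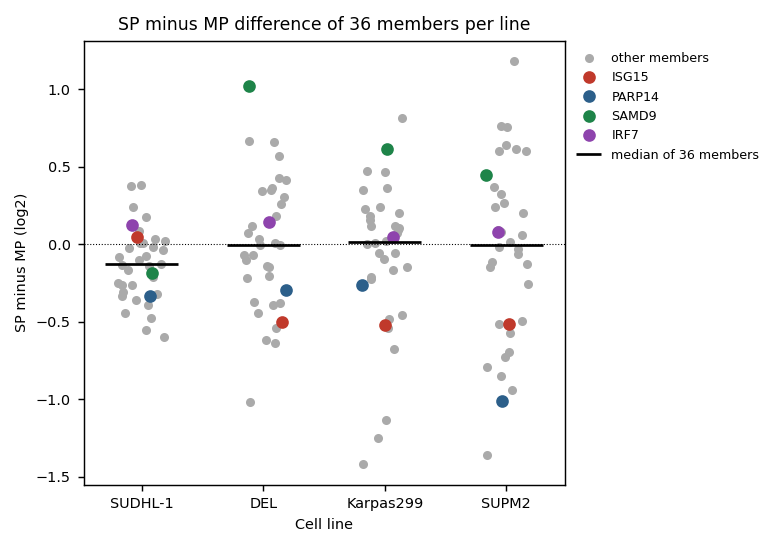
SP minus MP difference (log2 signal) of each of the 36 genes in SUDHL-1 (mean of 3 SP minus mean of 3 MP arrays) and in DEL, Karpas299 and SUPM2 (1 SP minus 1 MP array), with bars at the median and with ISG15, PARP14, SAMD9 and IRF7 in colour. Values lie on either side of 0 in every line. The median is -0.13 in SUDHL-1, where 11 of the 36 genes are higher in SP, and -0.0052 to 0.0135 in the other lines. Only PARP14, IFIT5 and IRF7 have the same sign in all 4.

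Some values carry limits of their own. IFIT1 was in the lowest 25% of genes on all 12 arrays, 10 more genes were there on 1 to 11 arrays, and 25 never were. IFI44L and EPSTI1 were there on 11 arrays each, HERC6 on 9, RSAD2 on 8 and OAS3 on 7. MX1 was there on 6, and IFI44 and IFIT2 on 5 each. DDX60 (3.80 in SP and 3.78 in MP) and IFIT5 (4.02 and 4.03) were there on the Karpas299 arrays alone, where the limit was 4.355 to 4.364. The order of the lines, and the size of a difference, rest partly on dim signals for all these genes. DDX60 and IFIT5 were called higher in SUDHL-1 and lost that call without the line Karpas299. The shared probe set of GBP1 had signals of 6.60 to 8.29 over the 12 arrays. GBP2 has 2 probe sets that disagree in level, with SUDHL-1 signals of 7.06 to 8.43 on the brighter one, which was used, and 4.81 to 7.66 on the other. In RNA from many cells, fewer expressing cells and less RNA per cell cannot be told apart.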

How the data were processed

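Gene expression of SP and MP cells was measured on 12 Affymetrix arrays, with RNA extracted and amplified by a whole-transcript kit for small amounts and labelled with biotin, per the labels' protocols. The deposited values are log2 signals that the authors computed by RMA (version not stated), per the submitters' processing notes, and 0 value columns were left out. The number of arrays limits the precision. Of 33297 probe sets, 19460 had 1 gene symbol, 1754 several and 12083 none in the platform's annotation, which can be old. By Entrez identifier 19429 matched the RefSeq table (GRCh38.p14), with 0 symbols updated. The brightest probe set stood for each of the 769 genes with several, which left 18417 genes.

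limma 3.58.1 in R 4.3.3 (lmFit and eBayes) was fitted to the whole table, with two-sided p-values adjusted by Benjamini-Hochberg and a threshold of 0.05. The fits were SP minus MP in SUDHL-1, 1 SP minus MP difference for each of 4 lines, line level among DEL, Karpas299 and SUPM2 (line plus population), SUDHL-1 level over all 12 arrays (line plus population), and the interaction of SP minus MP with SUDHL-1. The scripts were tested on simulated data. Alternatives were a filter on dim genes (the lowest 25% of mean signal), renewed quantile normalization, array medians, averaged probe sets, a robust trended variance, other sample sets and left-out arrays or lines. The subtraction of the dim genes' median and the removal of both SUDHL-1 arrays numbered 3 were added after the data were seen.

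The genes and lists were chosen with earlier results of these data known. By the naming rule, any of the 37 genes may be named, with array values for those past the threshold (up to 10 in each direction by size) or, where under 5 passed, for the 4 with the smallest p on either side; from each other list up to 4 genes of smallest p are named, and the interferon receptor chains always. Same-numbered SP and MP arrays of SUDHL-1 had deviations correlated at -0.004, -0.077 and -0.132, so the numbers do not pair them.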

Additional observations from a re-analysis of the deposited data

Results flagged for a closer look

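For each of the 36 genes, the 6 SUDHL-1 arrays and the 4 SP minus MP differences by line were searched for 1 value far from the rest by Dixon's criterion, 72 searches in all, of which chance passes about 1 in 20. In SUDHL-1, IFI44L was at 2.71 on SP 1, against 2.95 to 3.08 on the other arrays. OASL was at 4.82 on MP 2, against 4.21 to 4.43. EPSTI1 was at 3.14 on MP 2, against 2.70 to 2.86. SAMD9L was at 8.29 on MP 3, against 6.64 to 7.06.

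Among the SP minus MP differences, ISG15 was at 0.04 in SUDHL-1, against -0.52 to -0.50 in the other lines. ISG20 was at -0.46 in Karpas299, against -0.07 to 0 elsewhere. In SUPM2, IFIT5 was at -0.69 (other lines -0.02 to 0), PARP14 at -1.02 (-0.33 to -0.26) and DDX60 at 1.18 (-0.21 to 0.02). DEL, Karpas299 and SUPM2 each had 1 SP and 1 MP array, so these differences have no replicate.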

How the results depend on the processing

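Of 324 alternative values of the counts and medians, 254 stayed close to the value reported, 58 moved, 10 dropped to 0 calls and 2 gained a call from 0; the median of Karpas299 minus SUPM2 changed sign under some alternatives. Of 855 for the named genes, 763 kept their direction and side of the threshold, 85 lost a call, 5 gained one and 2 turned sign (IRF7 in SUDHL-1 without both arrays numbered 3, -0.09, and DDX60 over the lines without SUPM2, -0.07). SP against MP gave 0 calls among the 36 genes under every alternative run, with leave-one-out medians of -0.16 to -0.04 in SUDHL-1 and -0.11 to -0.07 over 4 lines. With a replicate block on the SUDHL-1 numbers, 0 genes were called and the median was -0.13. With the dim genes left out, the median was -0.49 for DEL minus Karpas299, 0.16 for Karpas299 minus SUPM2 and -0.62 for SUDHL-1. The SUDHL-1 median was -0.49 after quantile normalization, -0.34 after array medians, -0.43 after the dim genes' median, -0.97 without DEL and -0.56 without SUPM2. The count higher in SUDHL-1 was 4 with its replicates averaged first and 4 without DEL. With 12 arrays in 1 fit, DEL minus Karpas299 called 7 genes (7 lower), Karpas299 minus SUPM2 10 (7 lower) and the F test 15. Without a population term the F test called 8. The share of all genes called is not given for these fits or for those with 1 array left out. Their counts cannot be read as particular to the 36 genes. With 1 array left out, DEL minus Karpas299 called 0 to 5 genes (0 to 1 higher, 0 to 4 lower, median -0.42 to -0.18), DEL minus SUPM2 1 to 3 (1 to 3 lower, median -0.52 to -0.35), Karpas299 minus SUPM2 0 to 6 (0 to 2 higher, 0 to 4 lower, median -0.24 to 0.02), the F test 1 to 8 and SUDHL-1 26 to 31 (4 to 7 higher, 21 to 24 lower, median -0.92 to -0.71). The cause was not tested, beyond fewer arrays or genes in those fits. A single array for each population of 3 lines and signals in the lowest 25% limit what these counts can show.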
